A study of Mus musculus with 4 samples.

Results

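The stretch of chromosome 11 that runs from Eif4a1 to past Polr2a held 18 of the 12053 peaks of RNA crosslinked to the transcription factor YY1 in mouse embryonic stem cells, 17 of them on the minus strand, from which both genes are read. Its members are all peaks with at least 1 base between positions 69470000 and 69680000 of the mm9 genome. The bounds were chosen from the peaks themselves, because minus-strand peaks were known to gather there, so their number, strand and widths are a description and carry no test. The series holds 4 CLIP-seq libraries, 1 per group, and CLIP-seq reads the RNA pieces that a protein holds once ultraviolet light has crosslinked them to it. The library described here came from cells that made the biotin ligase BirA together with BioYY1, a form of YY1 that the ligase tags with biotin. A control with BirA alone was made for it, and an OCT4 library had its own control with BirA alone. These 3 libraries were not analysed here. All cells grew on irradiated mouse embryonic fibroblasts and were irradiated at 254 nm, and RNA was taken from purified nuclei on streptavidin beads. The labels give no count of cultures or clones.

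The 2 peak lists, 1 per strand, give only where a peak starts and ends. They hold no height, read count or p-value, so width in bases is the only size a peak has here, and read depth is unknown. A place without a peak is therefore not shown to lack bound RNA, and how much of any peak a control library would also show was not tested. With 1 library there is no spread between replicates. The lists carry no gene names, so neither markers of embryonic stem cells nor those of the fibroblast feeder cells could be counted.

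YY1 is a zinc finger protein that binds DNA at promoters and enhancers and also binds RNA, and the study asked whether RNA made at regulatory elements holds such factors in place. Polr2a encodes RPB1, the largest and catalytic subunit of RNA polymerase II, which carries the repeated C-terminal tail that is phosphorylated as the enzyme moves from initiation to elongation. Eif4a1 encodes the RNA helicase of the cap-binding complex eIF4F, which unwinds the start of mRNAs for translation. Both are housekeeping genes.

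The DNA just before each gene's start is shown as a part of the promoter, since YY1 binds DNA at promoters. The sequences are the 250 bases before the RefSeq start site, 5′ to 3′ on the minus strand in the GRCm38.p6 build, at chr11:69672424-69672673 for Eif4a1 and chr11:69758634-69758883 for Polr2a. These coordinates belong to a later build than the mm9 peaks and cannot be set against them. Capitals mark matches on either strand to CCATNTT, the classical YY1 consensus, which reads AANATGG on the other strand, or to the shorter GCCAT, which reads there as ATGGC.
Eif4a1: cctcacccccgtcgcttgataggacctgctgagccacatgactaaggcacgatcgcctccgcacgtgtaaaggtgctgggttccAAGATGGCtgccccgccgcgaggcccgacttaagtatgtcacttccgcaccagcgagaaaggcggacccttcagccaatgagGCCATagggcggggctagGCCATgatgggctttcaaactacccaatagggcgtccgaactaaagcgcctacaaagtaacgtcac
Polr2a: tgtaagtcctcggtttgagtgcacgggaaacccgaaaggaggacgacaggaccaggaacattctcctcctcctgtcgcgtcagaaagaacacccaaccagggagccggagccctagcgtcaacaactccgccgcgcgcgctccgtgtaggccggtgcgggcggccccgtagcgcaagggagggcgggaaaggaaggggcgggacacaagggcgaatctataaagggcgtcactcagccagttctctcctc

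The bases shown before Eif4a1 held both motifs and those before Polr2a held neither. Bases after the start site were not searched, so a match there would not be seen. In Eif4a1, AAGATGG, a match to CCATNTT read from the other strand, began 166 bases before the start site and overlapped an ATGGC that began at 163 bases. Forward copies of GCCAT began at 84 and 66 bases before the start. Of 32851 RefSeq promoter windows of the same length, 12.4% held CCATNTT and 32.9% held GCCAT. G and C made up 58.8% of the Eif4a1 window and 62.8% of the Polr2a window, against a median of 52.4%. A match is a string of letters and not a measured site.

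In Polr2a, peaks lay at both ends of the gene and none between them. The interval given for the gene in mm9, rounded to 1000 bases, is 69547000 to 69572000, and since the gene is on the minus strand its RNA starts at the high end. The peak at the low, 3′ end ran from 69547501 to 69549894 and was 2394 bases wide. The peak at the high, 5′ end ran from 69571482 to 69572125 and was 644 bases wide. The 3′ peak thus began 501 bases inside the rounded bound, and the 5′ peak reached 125 bases past the other one.

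The 3′ peak was 3.72 times as wide as the 5′ peak. It was the widest of the stretch, wider than 99.3% of all peaks of the library, and ranked 5 by width among the 614 minus-strand peaks of chromosome 11. The 5′ peak was wider than 79.3% of all peaks. Between them lay 21587 bases without a peak on either strand, 86.3% of the interval. Peaks covered 2913 bases of the interval, or 11.7%, and 3038 bases with the part past the rounded bound. No plus-strand peak touched it, and the nearest one to the 5′ peak was 20804 bases away.

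Near Eif4a1 the peaks were crowded instead of standing apart. The position given for this gene is 69480000, with no interval, so peaks within 10 kb to each side were counted. There were 4, all on the minus strand and all at higher coordinates than that position. The first ran from 69481053 to 69481730 and was 678 bases wide. The second, of 710 bases, ran from 69482191 to 69482900, and the third, of 353 bases, from 69482989 to 69483341. The fourth, from 69484280 to 69485917, was 1638 bases wide and the second widest of the stretch.

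These 4 peaks fell within 4865 bases, and 3379 of those, or 69.5%, were covered. The gaps that separated them were 460, 88 and 938 bases. They held 22.9% of the minus-strand peak bases of the stretch, and the 2 Polr2a peaks held 20.6%. The counts should not be read as levels of the RNAs, since the lists give none and a long peak can be 1 strong site or several weak ones. With 5 kb to each side the count was still 4, but the window then ended within the fourth peak and covered bases were 2462. With 20 kb to each side there were 7 peaks and 5509 covered bases, so whether more bases were covered near Eif4a1 than in Polr2a depended on the window.

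**Figure D1:**
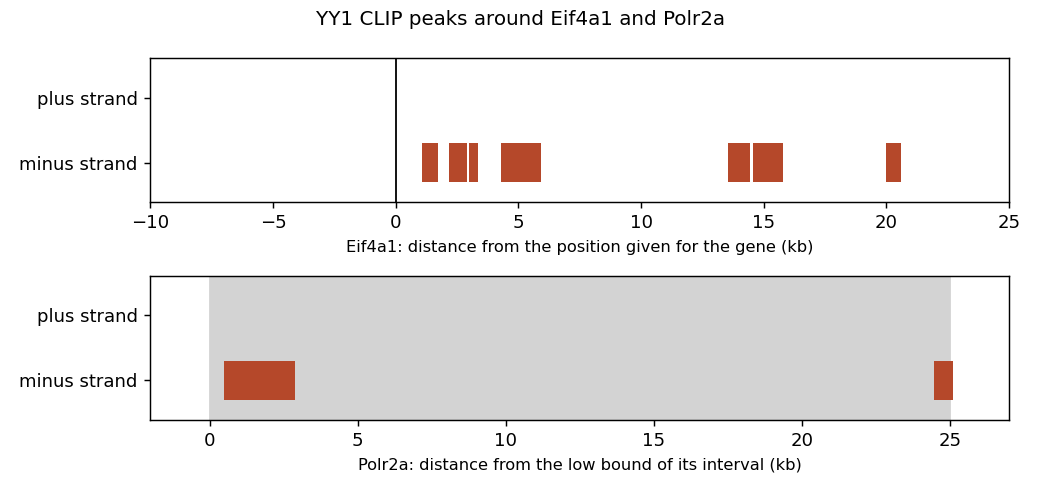
Peaks around Eif4a1 (top) and Polr2a (bottom), by strand, against distance in kb from the position or the low bound given for the gene; each bar is a peak drawn to scale, the line marks the Eif4a1 position and the grey band the Polr2a interval. The 4 peaks nearest to Eif4a1 lie within 4865 bases, while the 2 Polr2a peaks sit at the ends of the interval with 21587 bases between them.

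In the GRCm38 RefSeq gene table, used here for order only, 8 genes start after Eif4a1 and before Polr2a. Of these, 3 are small nucleolar RNA genes that lie within Eif4a1, a class of short nuclear RNAs that guide modification of other RNAs and are often cut from introns. The other five, which stand between the 2 genes, are Senp3, a SUMO protease of the nucleolus, the cytokine genes Tnfsf13 and Tnfsf12, their joined form Tnfsfm13, and the noncoding Tnfsf13os. Senp3, Tnfsf13 and Tnfsfm13 are listed on the minus strand, and the promoter table used for strands has no entry for Tnfsf12. After Polr2a come Slc35g3 on the minus strand and Zbtb4, a zinc finger gene, on the plus strand. Chrnb1, Fgf11 and Tmem102 follow on the minus strand. Next are the noncoding G630025P09Rik on the plus strand and Gm39566 and Spem2 on the minus strand, where the listing was ended. Without an mm9 annotation no peak was given to any of these genes, and counts over the other polymerase II and eIF4F genes were not made.

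Between the Eif4a1 window and the Polr2a interval, 3 minus-strand peaks lay close to the Eif4a1 side. The first, from 69493541 to 69494428, was 888 bases wide and stood 147 bases from the next. That one, from 69494576 to 69495794, was 1219 bases wide. The third, from 69499978 to 69500588, had 611 bases. All were wider than at least 77.5% of the peaks of the library, and together they covered 2718 bases. From there to the 3′ peak of Polr2a no peak was found on either strand over 46912 bases, the longest empty run inside the stretch. The empty minus-strand runs at its ends go on past the bounds. With 50 kb added at each end, the longest minus-strand run was 62926 bases.

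Past the 5′ end of Polr2a, 8 minus-strand peaks covered 5591 bases, 38.0% of the minus-strand total. The nearest were 17819 bases from the 5′ peak of Polr2a. They ran from 69589945 to 69591110, with 1166 bases, and from 69591711 to 69592048, with 338 bases. The single plus-strand peak of the stretch followed, from 69592930 to 69593322, with 393 bases. It lay 881 bases beyond the nearest minus-strand peak, at the higher coordinate, so RNA of these peaks would be read away from the space between them. The wider minus-strand peak was 1819 bases from it.

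The remaining 6 peaks came after an empty run of 45669 bases on the minus strand. A pair of 562 and 516 bases stood 192 bases apart, from 69637718 to 69638279 and from 69638472 to 69638987. A wider pair, of 1011 and 1319 bases, ran from 69647583 to 69648593 and from 69649974 to 69651292, with 1380 bases between. The last peaks stood alone, 6743 bases from each other. The peak from 69659653 to 69659861 was the narrowest of the stretch, at 209 bases, and the one from 69666605 to 69667074 had 470 bases.

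**Figure D2:**
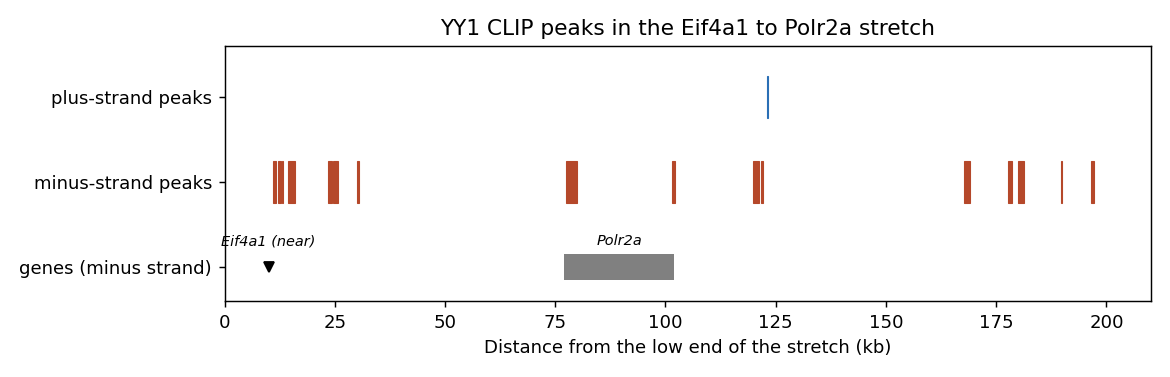
Peaks of the stretch by strand, as bars drawn to scale against distance in kb from its low end, with the Polr2a interval (grey bar) and the Eif4a1 position (triangle). The 17 minus-strand peaks fall into runs with empty spaces of up to 46912 bases, and the 1 plus-strand peak lies past Polr2a.

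On the minus strand peaks covered 14726 bases, 7.01% of the 210 kb, a larger part than the 0.312% of chromosome 11 and the 0.108% of all chromosomes that minus-strand peaks covered. On the plus strand they covered 393 bases, or 0.187%, against 0.255% of chromosome 11 and 0.11% of all chromosomes. The adjoining windows of the same length were also above the chromosome averages. Minus-strand peaks covered 1.41% of the window below and 0.936% of the one above, and plus-strand peaks 1.79% and 3.87%. The rest of the stretch had no peak. The 6 longest empty runs of the minus strand, of 11.1 to 46.9 kb, made up 74.3% of the stretch. They included the inside of Polr2a, both sides of that gene and the 2 ends of the stretch. The plus strand was empty for 122930 bases below its peak and for 86678 bases above it.

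Neighbouring peaks were often close. Of 16 gaps between successive minus-strand peaks, 6 were under 1000 bases, or 37.5%, against 6.40% of the 12009 gaps between same-strand neighbours over all chromosomes. Since the stretch was chosen for gathered peaks, nothing is read from that difference. The median gap was 5463 bases here and 58904 bases over the whole library.

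Minus-strand peaks of the stretch were mostly wider than the median peak of the library. The narrowest had 209 bases, the median was 678 and the widest 2394. The median of all peaks was 336 bases, and 16 of the 17 exceeded it, though 2 of those, with 338 and 353 bases, did so narrowly. Peaks over 1000 bases numbered 6 of 17, or 35.3%, against 8.29% of all 12053 peaks, and only the 3′ peak of Polr2a exceeded 2000. Those 6 held 59.4% of the minus-strand peak bases, while peaks over 1000 bases held 27.8% of the peak bases of the library. The median width was 1.49 times that of all minus-strand peaks of chromosome 11, which was 456 bases. In the adjoining window of the same length below, the median was 1475.5 bases for 2 minus-strand peaks and 932.5 for 4 plus-strand peaks. In the one above, it was 982.5 bases for 2 minus-strand peaks and 444 for 9 plus-strand peaks. Wide peaks were thus not particular to the stretch. No interval is given for these widths, since the stretch was chosen from its peaks and neighbouring peaks can come from 1 RNA.

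**Figure D3:**
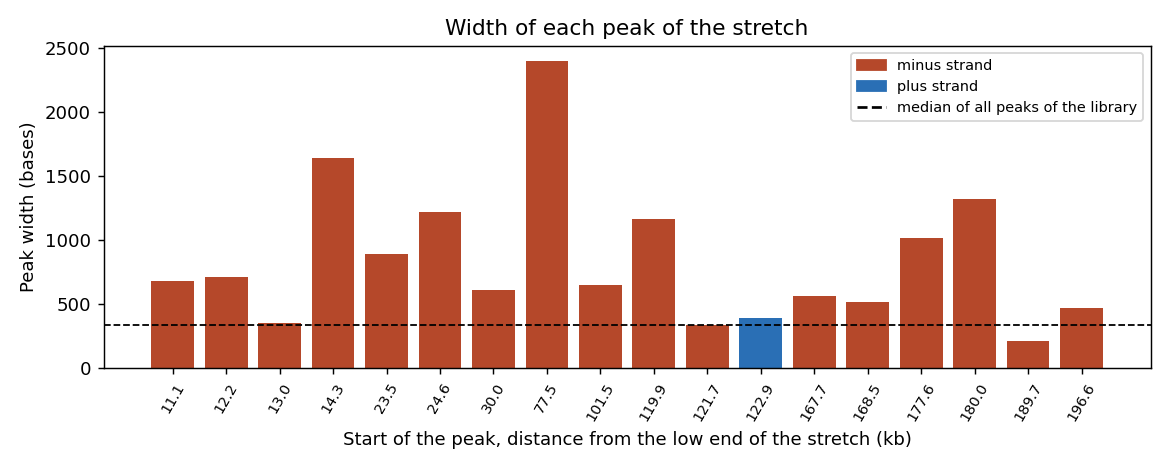
Width in bases of each of the 18 peaks in order along the stretch, labelled with the distance in kb of its start from the low end; colours give the strand and the dashed line is the median of all peaks, 336 bases. The widest bar, 2394 bases, is the 3′ peak of Polr2a.

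On either side of the stretch the plus strand had more peaks than the minus strand. Inside it the minus-strand share was 94.4%, or 17 of 18 peaks, a value fixed in part by how the bounds were chosen. It was 51.6% on chromosome 11 and 49.0% over all peaks. With 50 kb added at each end the share was 77.3%, as 4 more plus-strand peaks and no minus-strand peak entered. The adjoining window of the same length below had 2 minus-strand and 4 plus-strand peaks, and the one above had 2 and 9. On the minus strand, the last peak below the stretch ended at 69419456, 50.5 kb outside, and the first above began at 69730283, 50.3 kb outside. On the plus strand, the nearest peaks outside were 3072 bases below the low bound and 35.4 kb above the high bound. The first and last minus-strand members were 11.1 and 12.9 kb inside the bounds. Strand rests on how each list is named, and the labels say nothing more about it.

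The stretch was also set beside windows of its own length, as a description only. Each strand of each chromosome was laid out in successive windows of the same length, 25062 in all, and 77.6% of them held no peak. Of the 25062 windows, 0.0120%, or 3, held 17 or more peaks. They lay on the plus strand of chromosome 13 (19 peaks), the plus strand of chromosome 6 (18 peaks) and the minus strand of chromosome 8 (50 peaks). Covered bases reached 14726 in 0.00399% of windows, which is 1 window, on the minus strand of chromosome 19, with 18311 bases in 4 peaks. The 3 windows with more peaks had 3561, 11354 and 8122 covered bases, fewer than the stretch. Its bounds follow its peaks while the windows were laid blindly, and they divided it before Polr2a, with 9 and 10 minus-strand peaks in the windows that meet it. Those windows covered 9048 and 8629 bases. Windows with exactly 9 peaks numbered 20, those with exactly 10 numbered 14, and others held more. The 17 peaks are thus not compared like for like, and no rarity is read from these shares.

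**Figure D4:**
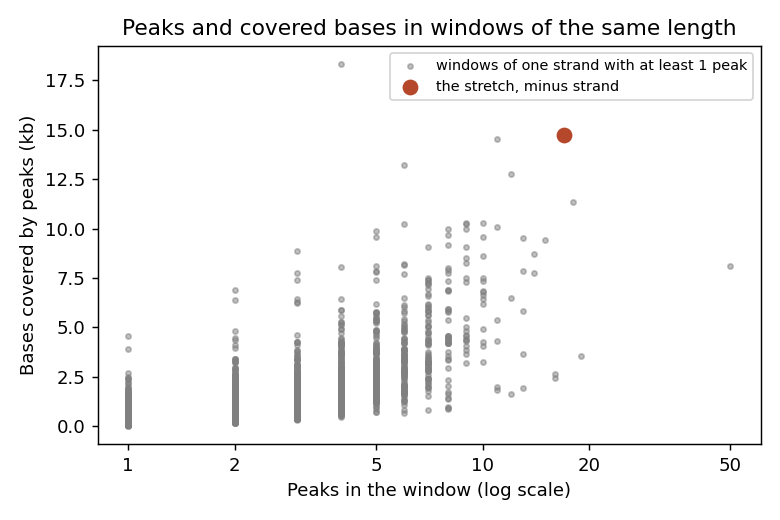
Number of peaks (log axis) and bases covered by peaks (kb) in each window of one strand that held at least 1 peak, with the minus strand of the stretch as the large point. More bases are covered in 1 window, and 3 have more peaks. The bounds of the stretch follow its peaks while the windows were laid blindly, so the large point is not compared like for like.

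The runs most like it by number of peaks were of several widths. Joined across gaps of up to 50 kb on 1 strand, the 17 peaks formed 1 of 6385 runs and ranked 5 by covered bases. A plus-strand run of 17 peaks on chromosome 3 had a median width of 128 bases and covered 2656 bases. A minus-strand run of 16 peaks on chromosome 7 had a median of 549.5 bases and covered 10355 bases. A plus-strand run of 15 peaks on chromosome 2 had a median of 548 bases and covered 10979 bases over 290 kb, a longer span than the 186 kb here. A plus-strand run of 15 peaks on chromosome 10 had a median of 403 bases and covered 8.38% of its 109 kb, against 7.92% here. Of these runs, the Eif4a1 to Polr2a run had the widest peaks by median, though it was chosen from its peaks.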

How the data were processed

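RNA bound to tagged YY1 in nuclei of mouse embryonic stem cells was sequenced in 1 library. The authors deposited 2 lists of peaks, 1 per strand, with chromosome, start and end only, and other measures per peak were not used here. Cutadapt, Bowtie, Bowtie2 and SAMtools and the build mm9 are named, with no version or role, per the submitters' processing notes. The peak caller, its threshold and any use of the control were not given in the sources used here. A looser threshold can widen or merge peaks, so widths and counts depend on it.

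Starts were changed from 0-based to 1-based. A member had at least 1 base in the stretch. The members, their bounds and the lists of genes were chosen with earlier results of these data known. The rule for naming was that every peak could be named, with Eif4a1 and Polr2a by the rounded positions given for them and neighbouring genes by order alone. Planned marker and complex gene counts were not run, as no mm9 annotation was used here. Promoters are from RefSeq (both genes matched), without the bases after the start site. The counting was tested on simulated data. Scripts ran in Python 3.11.15 with scipy 1.17.1, pandas 2.3.3 and numpy 2.4.6, and plots were drawn with matplotlib 3.10.9. Alternatives were other overlap rules, the wider 50% of peaks, joined peaks, a longer stretch and other gene windows.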

Additional observations from a re-analysis of the deposited data

How the results depend on the processing

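Of 42 alternative values, 35 stayed within 1.5 times the main count or within the main 95% interval, and 7 did not. Several alternatives could hardly move a value, so the tally does not measure how firm the results are. All members lay wholly inside the stretch, so the overlap rule changed nothing. The next minus-strand peaks outside lay 50.5 and 50.3 kb away, just past the 50 kb added. With the stretch extended by 50 kb at each end, plus-strand peaks went from 1 to 5 and their covered bases from 393 to 3251. The minus-strand share went from 94.4% to 77.3%, which lies inside its interval. The intervals, used for this share and the median width, cover counting error only and treat peaks as independent. Neighbouring peaks can come from 1 RNA and the stretch was chosen from its peaks, so nothing is read from staying inside them. A window of 20 kb to each side gave 7 peaks and 5509 covered bases near Eif4a1. Windows with as many peaks as the minus strand of the stretch numbered 5 with peaks within 100 bases joined and 0 with the wider 50% of peaks, against 3. The stretch held 16 minus-strand peaks in each of these alternatives, so the number to reach was 16 and not 17. Raising the width limit to 2000 bases left 1 peak. No paired analysis was made because only 1 library was analysed, and no replicate could be left out. Depth is unknown, so empty runs may hold bound RNA below the authors' threshold.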
